A study of Mus musculus with 2 samples.

Results

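Complement and coagulation proteins were followed as a set of 33 genes, chosen by symbol from the 31054 gene rows of a single-cell RNA-sequencing table of mouse liver. The set held 5 genes of complement activation, 3 of the lectin pathway, 6 of the terminal complement complex, 10 clotting factors, the 3 fibrinogen chains and 6 anticoagulant or fibrinolytic proteins. All 33 symbols were found. The livers came from 3 BL6 mice, taken on day 6 after plasmid was injected hydrodynamically into the tail vein, which delivers DNA to a subset of hepatocytes. The G12V mice had received a transposon that expresses oncogenic NRAS(G12V) with the yellow fluorescent protein mVenus from the strong CAGGS promoter, and the control mouse the double mutant NRAS(G12V/D38A), altered also in the region that binds effectors. All mice therefore carried the transposon, and only mVenus-sorted cells were sequenced. The cells of each mouse bore a hashtag, an antibody with a DNA barcode, and were pooled before the run.

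The deposited table gives hashtag 1 to the D38A mouse, hashtag 2 to G12V replicate 1 and hashtag 3 to G12V replicate 2, whereas in the methods of the study the control is hashtag 3 and both others are G12V. Mice are therefore named by hashtag, and the question asked was how the genes varied with the level of Nras within a mouse. The mouse Nras row takes up transcripts of the construct, and it was used as the measure of dose.

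The liver makes most of the complement and clotting proteins of the blood, and hepatocytes secrete nearly all of those followed here, the proteases among them as inactive precursors. In complement, C3 is cleaved by convertases built from C4b and C2 or from factor B, the lectin pathway starts from the mannose-binding lectins Mbl1 and Mbl2 with the protease Masp1, and C5 (Hc), C6, C8 and C9 form the pore of the membrane attack complex. In coagulation, a cascade of proteases ends with thrombin (F2), which turns fibrinogen into fibrin, while protein C (Proc), protein S (Pros1) and plasmin, made from Plg, limit or dissolve the clot.

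Of 13151 barcodes, 10212 were kept and 8405 of these were hepatocytes, defined by Alb, Apoa1, Apoa2 and Ttr making up at least 1% of the UMIs (unique molecules counted). All 10 further hepatocyte markers were found in them. The hepatocytes fell into 2272 deep cells of at least 10000 UMIs and 6133 shallow cells. A single hashtag was called for 1365 deep hepatocytes, 225 with hashtag 1, 1116 with hashtag 2 and 24 with hashtag 3. These numbers depended on the calling rule. A fixed rule (10 or more hashtag UMIs, at least 80% of 1 hashtag) gave 515, 388 and 10 cells, although the 604 cells called by both rules all had the same hashtag. Under it the median ratio of the members between high and baseline Nras was 0.400 in hashtag 1 and 0.306 in hashtag 2. Hashtag 3 stood apart, since 18 of its 24 deep hepatocytes also passed a marker gate of another cell type, and the endothelial markers summed to 1129 CPM (UMIs per 1000000 UMIs) in its 19 cells at baseline Nras against 132 and 21.7 for hashtags 1 and 2. It entered the Nras comparisons with that single bin and so gave no difference between bins, and these comparisons rest on hashtags 1 and 2.

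Several members lie side by side in the genome. On GRCm38, the build of the files (mm10), Fgg (chr3:83007724-83015049), Fga (chr3:83026076-83033627) and Fgb (chr3:83040141-83049863) follow each other with gaps of 11.03 and 6.51 kb. C8b (chr4:104766317-104804548) and C8a (chr4:104815679-104876398) are 11.1 kb apart, F11 (chr8:45241174-45262031) and Klkb1 (chr8:45266689-45294859) 4.66 kb, F7 and F10 on chromosome 8 1.5 kb, and Cfb and C2 on chromosome 17 0.09 kb. The 250 bases upstream of the start are shown for neighbours that differed or fell together below, F11 and Klkb1, C8a and C8b, and Fgb and Fgg, from RefSeq (GRCm38.p6), each on its own strand from 5′ to 3′. The 3′ end of the Klkb1 window lies within the annotated gene. Capitals mark 3 motifs on either strand, GTTAAT (one side of an HNF1 site), TTGCNNAA (C/EBP) and CTGGGA (a type II interleukin-6 element).
F11, chr8:45262032-45262281, minus strand: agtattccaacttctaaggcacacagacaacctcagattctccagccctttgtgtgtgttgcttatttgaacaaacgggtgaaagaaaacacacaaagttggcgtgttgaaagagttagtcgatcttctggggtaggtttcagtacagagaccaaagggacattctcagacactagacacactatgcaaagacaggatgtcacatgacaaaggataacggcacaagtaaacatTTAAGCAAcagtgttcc
Klkb1, chr8:45294836-45295085, minus strand: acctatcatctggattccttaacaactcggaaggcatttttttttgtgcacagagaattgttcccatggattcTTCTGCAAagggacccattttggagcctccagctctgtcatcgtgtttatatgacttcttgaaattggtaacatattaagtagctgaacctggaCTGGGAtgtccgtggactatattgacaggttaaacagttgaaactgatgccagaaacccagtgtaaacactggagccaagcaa
C8a, chr4:104876399-104876648, minus strand: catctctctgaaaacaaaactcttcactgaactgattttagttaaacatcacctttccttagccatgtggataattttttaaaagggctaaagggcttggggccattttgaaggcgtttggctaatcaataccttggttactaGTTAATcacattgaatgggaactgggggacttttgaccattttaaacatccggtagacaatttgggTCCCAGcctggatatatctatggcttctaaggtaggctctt
C8b, chr4:104766067-104766316, plus strand: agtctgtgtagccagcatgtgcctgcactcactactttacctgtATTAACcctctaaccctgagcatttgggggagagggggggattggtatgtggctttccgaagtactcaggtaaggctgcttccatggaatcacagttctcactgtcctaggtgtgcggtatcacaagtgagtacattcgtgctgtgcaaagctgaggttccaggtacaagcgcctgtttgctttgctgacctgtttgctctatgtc
Fgb, chr3:83049864-83050113, minus strand: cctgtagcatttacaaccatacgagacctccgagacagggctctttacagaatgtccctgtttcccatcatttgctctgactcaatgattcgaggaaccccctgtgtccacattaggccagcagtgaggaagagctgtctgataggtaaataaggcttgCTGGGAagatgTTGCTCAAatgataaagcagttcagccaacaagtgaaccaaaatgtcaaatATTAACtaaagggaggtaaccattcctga
Fgg, chr3:83007474-83007723, plus strand: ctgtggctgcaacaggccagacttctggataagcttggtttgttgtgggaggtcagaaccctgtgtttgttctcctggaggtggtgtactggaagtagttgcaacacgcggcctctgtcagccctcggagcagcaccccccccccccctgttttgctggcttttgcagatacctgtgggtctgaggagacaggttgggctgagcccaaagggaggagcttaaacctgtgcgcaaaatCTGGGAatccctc

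Windows were available for 25 members and 27025 genes. GTTAAT or its complement was in 28.0% of the members' windows against 7.49% of all genes, TTGCNNAA in 32.0% against 10.8%, and CTGGGA in 36.0% against 29.8%. The STAT pattern TTCNNNGAA was in 20% against 8.13%. The full HNF1 palindrome and the HNF4 repeat CAAAGTCCA were in none of the 25 windows, and in 0.0111% and 0.451% of all genes. The full palindrome contains GTTAAT, and no capitals overlap in the windows shown. F11 had a C/EBP match alone, whereas its neighbour Klkb1 had a C/EBP and a CTGGGA match, and both C8a and C8b held GTTAAT or its complement. A match is only a run of letters and was set against no measurement of binding.

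Dose was described in 4 bins of Nras CPM, with Nras and mVenus left out of the total, baseline under 200, low from 200, intermediate from 800 and high from 2000. mVenus, a separate row, was at 6.11, 55.9, 149 and 333 CPM in these bins over all deep hepatocytes. Median depth moved with the bins, from 35648 UMIs at baseline to 44939, 59014 and 53901. All 33 members together made up 1.83% of the UMIs at baseline, 1.29% in the low bin, 0.856% in the intermediate bin and 0.682% in the high bin. In hashtag 1 the share went from 1.66% to 1.31%, 0.827% and 0.840%, and in hashtag 2 from 1.92% to 1.31%, 0.863% and 0.658%. The share was thus lower in the high bin than at baseline in both mice, with no further step between intermediate and high in hashtag 1. In molecules per cell the members went from 666 at baseline to 368 in the high bin over all deep hepatocytes. They went from 572 to 449 in hashtag 1 and from 814 to 399 in hashtag 2. Levels are shares of a cell's UMIs, and shares alone cannot tell less RNA of a gene from more RNA of other genes. The cause was not tested.

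In the high bin against baseline, 28 of the 32 members tested fell and 0 rose (edgeR quasi-likelihood test on UMI sums per hashtag and bin, hashtag as block, adjusted p under 0.05). Among all 10927 genes tested 12.8% were called lower and 13% higher. The median log2 fold change of the members was -1.50, against -0.03 for all genes tested. C6 had too few UMIs to be tested. The 10 hepatocyte markers had a median of -2.12, with 8 called lower and 0 higher, and their summed level went from 22863 to 9961 CPM, so the members moved with other hepatocyte genes; the part of a general loss of hepatocyte RNA was not tested. Endothelial markers summed to 42.2 CPM at baseline and 19.8 in the high bin, and macrophage markers to 11.1 and 9.31. Without the barcodes that passed another gate, 29 members were called lower. In deep hepatocytes of 10000 to under 30000 UMIs alone, 5 of 28 tested were called, at a median of -1.73. The high bin there held only 5 cells in hashtag 1 and 6 in hashtag 2. With Nras quartiles within each mouse in place of the bins 15 were called, at a median of -0.88. The shares of all genes called in these alternative fits are not given.

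The terminal complement genes had the lowest median of the roles, -2.54, with all 5 tested lower. C9, the subunit that lines the pore, had the largest fall of the set, from 21.3 to 8.27, 1.51 and 2.41 CPM across the bins of hashtag 1 and from 15.4 to 9.43, 3.81 and 0.687 in hashtag 2. The groups did not overlap, since both high values lay under every baseline value. Its log2 fold change was -3.97 (SE 0.43, adjusted p = 7.83e-05, edgeR), although the high bin held only 4 UMIs in each mouse.

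C8b and C8a encode the beta and alpha chains of C8, which joins the complex before C9. C8b went from 36.3 to 22.4, 9.84 and 11.5 CPM in hashtag 1 and from 46.5 to 24.0, 8.62 and 2.41 in hashtag 2, a log2 fold change of -3.19 (SE 0.40, adjusted p = 0.000206, edgeR). C8a went from 32.1 to 8.27, 6.05 and 10.3 in hashtag 1 and from 37.4 to 23.1, 14.6 and 4.98 in hashtag 2, a change of -2.54 (SE 0.37, adjusted p = 0.000508, edgeR). The neighbouring pair thus moved alike, and the high-bin values of both genes were below all baseline values. C8g, the third C8 chain and a lipocalin encoded on chromosome 2, went from 245 to 129, 75.7 and 73.0 in hashtag 1 and from 335 to 184, 125 and 65.3 in hashtag 2, a change of -2.09 (SE 0.18, adjusted p = 1.83e-05, edgeR). Hc, which encodes C5, fell least in this group at -0.93 (SE 0.11).

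In the lectin pathway all 3 genes fell, with a median of -2.09. Mbl1 went from 74.4 to 27.8, 13.6 and 13.3 CPM in hashtag 1 and from 86.7 to 40.4, 15.8 and 5.33 in hashtag 2. It was 11.2-fold lower in the fit (log2 -3.49, SE 0.28, adjusted p = 1.29e-05, edgeR). Mbl2 went from 628 to 291, 146 and 197 in hashtag 1 and from 763 to 383, 212 and 131 in hashtag 2, a change of -2.09 (SE 0.22). The protease gene Masp1 had low levels throughout, 15.6 at baseline and 5.43 in the high bin of hashtag 1 and 18.1 and 6.19 in hashtag 2 (log2 -1.54, SE 0.21). Markers of endothelial cells, which also held Masp1 RNA, summed to 132 and 21.1 in these bins of hashtag 1 but to 21.7 and 21.0 in hashtag 2.

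The genes of complement activation fell least, with 5 of 5 called and a median of -0.80. C3, the central component, went from 2494 to 1969, 1114 and 1300 CPM in hashtag 1 and from 2800 to 1954, 1332 and 967 in hashtag 2. Its log2 fold change was -1.22 (SE 0.15, adjusted p = 0.000164, edgeR). Cfi, the protease that inactivates C3b, had the smallest called change of the whole set, -0.54 (SE 0.11), from 397 to 376, 389 and 286 in hashtag 1 and from 445 to 391, 353 and 293 in hashtag 2. C4b, C2 and Cfb lay between at -0.63, -0.80 and -0.94. Reads of C4b and its close copy C4a may not be separable, and the C4b value is uncertain for that reason.

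**Figure D1:**
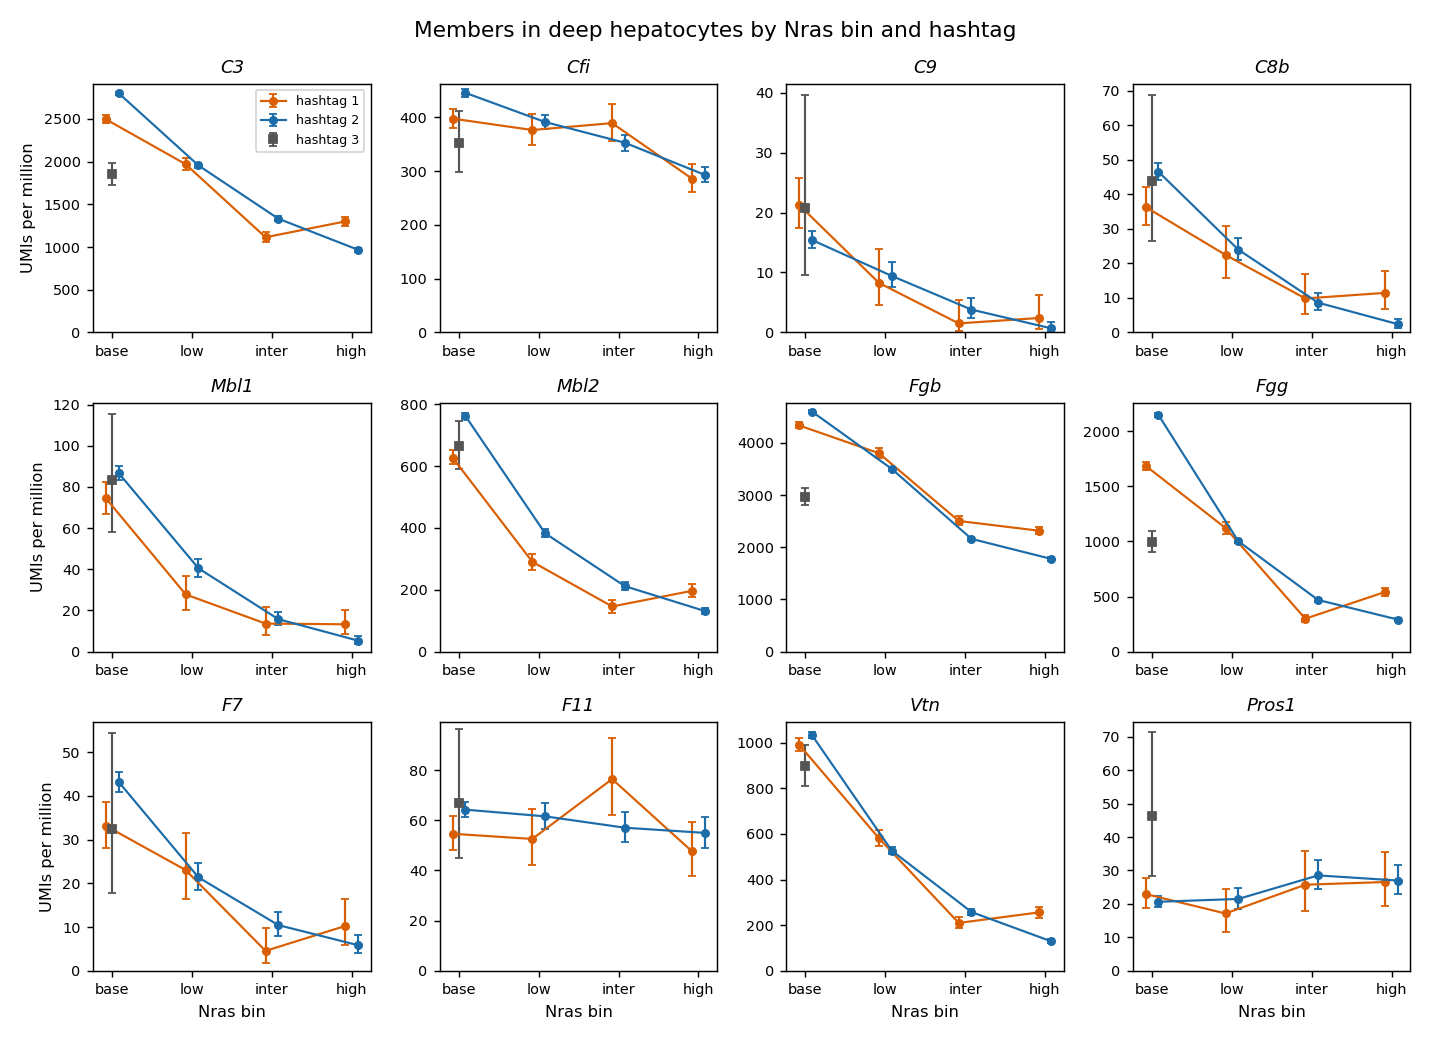
Levels of 12 members in deep hepatocytes, in CPM on linear axes that start at 0, across the baseline, low, intermediate and high Nras bins. Points are sums over the cells of hashtag 1 (orange), hashtag 2 (blue) and hashtag 3 (grey square, baseline only) with exact Poisson 95% intervals, which cover counting error only. C9 goes from 21.3 and 15.4 to 2.41 and 0.687, while F11 goes from 54.6 and 64.3 to 47.6 and 55.0 and Pros1 from 22.9 and 20.6 to 26.5 and 27.0.

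Fibrinogen carried the largest share of the set's molecules, 0.777% of UMIs at baseline and 0.250% in the high bin over all deep hepatocytes. All 3 chains fell but by unequal amounts. Fgb went from 4336 to 3803, 2504 and 2319 CPM in hashtag 1 and from 4602 to 3503, 2161 and 1777 in hashtag 2, a log2 fold change of -1.14 (SE 0.11, adjusted p = 4.88e-05, edgeR). Fga went from 1079 to 769, 411 and 455 in hashtag 1 and from 1294 to 743, 419 and 261 in hashtag 2, a change of -1.77 (SE 0.21). Fgg went from 1687 to 1122, 299 and 542 in hashtag 1 and from 2148 to 1003, 469 and 291 in hashtag 2, a change of -2.22 (SE 0.29). For every 100 Fgb UMIs there were 38.9 Fgg UMIs at baseline and 23.4 in the high bin of hashtag 1, and 46.7 and 16.4 in hashtag 2. The proportion of the chains of one protein, encoded side by side, was therefore lower for Fgg at high Nras in both mice. The difference between the chains was not tested.

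Single cells varied widely around these sums. For Fgg the quartiles over the 1570 deep hepatocytes at baseline were 229, 1173 and 3101 CPM, and over the 191 of the high bin 0, 31.2 and 89.8. The pooled high-bin value of 295 CPM thus lay above the upper quartile of its cells. In the 930 baseline cells of at least 30000 UMIs that passed no other gate, the levels of Fga and Fgg had a Spearman rho of 0.919, Fga and Fgb of 0.746, and C3 and Cfi of 0.223, the lowest of the pairs computed over 12 abundant members. These cells share a library and the scaling to their own totals, and the values are a description.

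Among the 10 clotting factors 8 fell, with a median of -1.09 over all 10. F7, which starts the extrinsic pathway, went from 33.2 to 23.0, 4.54 and 10.3 CPM in hashtag 1 and from 43.2 to 21.4, 10.4 and 5.84 in hashtag 2 (log2 -2.51, SE 0.28, adjusted p = 8.75e-05, edgeR). F10, which converts prothrombin and lies beside F7, went from 130 to 82.1, 33.3 and 50.1 in hashtag 1 and from 148 to 72.1, 42 and 19.6 in hashtag 2 (log2 -2.23, SE 0.30, adjusted p = 0.000323, edgeR). For both genes every high value was under every baseline value. Klkb1 (prekallikrein) changed by -2.21 (SE 0.28), F13b (the carrier subunit of factor XIII) by -2.17 (SE 0.24) and F9 by -1.45 (SE 0.19). F2, Kng1 and F12 changed less, by -0.74, -0.67 and -0.56. Kng1 has a close copy, Kng2, and its counts are uncertain to that extent.

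F11 and F5 were not called. F11 was 54.6, 52.6, 76.4 and 47.6 CPM across the bins of hashtag 1 and 64.3, 61.6, 57.0 and 55.0 in hashtag 2 (log2 -0.21, SE 0.16, adjusted p = 0.391, edgeR). Its neighbour Klkb1 went from 52.5 to 32.5, 15.1 and 21.7 in hashtag 1 and from 66.3 to 43.7, 22.7 and 9.97 in hashtag 2. The neighbours started at similar levels and ended apart in both mice, although the difference between them was not tested. F5, the cofactor of factor X, was 81.5 at baseline and 86.9 in the high bin of hashtag 1 and 109 and 63.6 in hashtag 2 (log2 -0.40, SE 0.18, adjusted p = 0.141, edgeR).

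Of the anticoagulant and fibrinolytic genes 4 of 6 fell. Hrg, a plasma protein that binds heparin and plasminogen, went from 178 to 105, 60.5 and 54.3 CPM in hashtag 1 and from 257 to 140, 77.3 and 28.7 in hashtag 2 (log2 -2.52, SE 0.28, adjusted p = 0.0001, edgeR). Vtn, the adhesive protein vitronectin, went from 991 to 581, 210 and 256 in hashtag 1 and from 1034 to 527, 258 and 129 in hashtag 2 (log2 -2.45, SE 0.25, adjusted p = 4.98e-05, edgeR). Neither gene had a high value that reached a baseline value. Plg changed by -1.77 (SE 0.27) and Cpb2, which protects fibrin from lysis, by -1.05 (SE 0.13). Proc was not called, with 268 at baseline and 237 in the high bin of hashtag 1 and 299 and 216 in hashtag 2 (log2 -0.33, SE 0.13, adjusted p = 0.0848, edgeR). Pros1 had the only positive value, 22.9 and 26.5 in hashtag 1 and 20.6 and 27.0 in hashtag 2 (log2 0.31, SE 0.14, adjusted p = 0.149, edgeR).

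**Figure D2:**
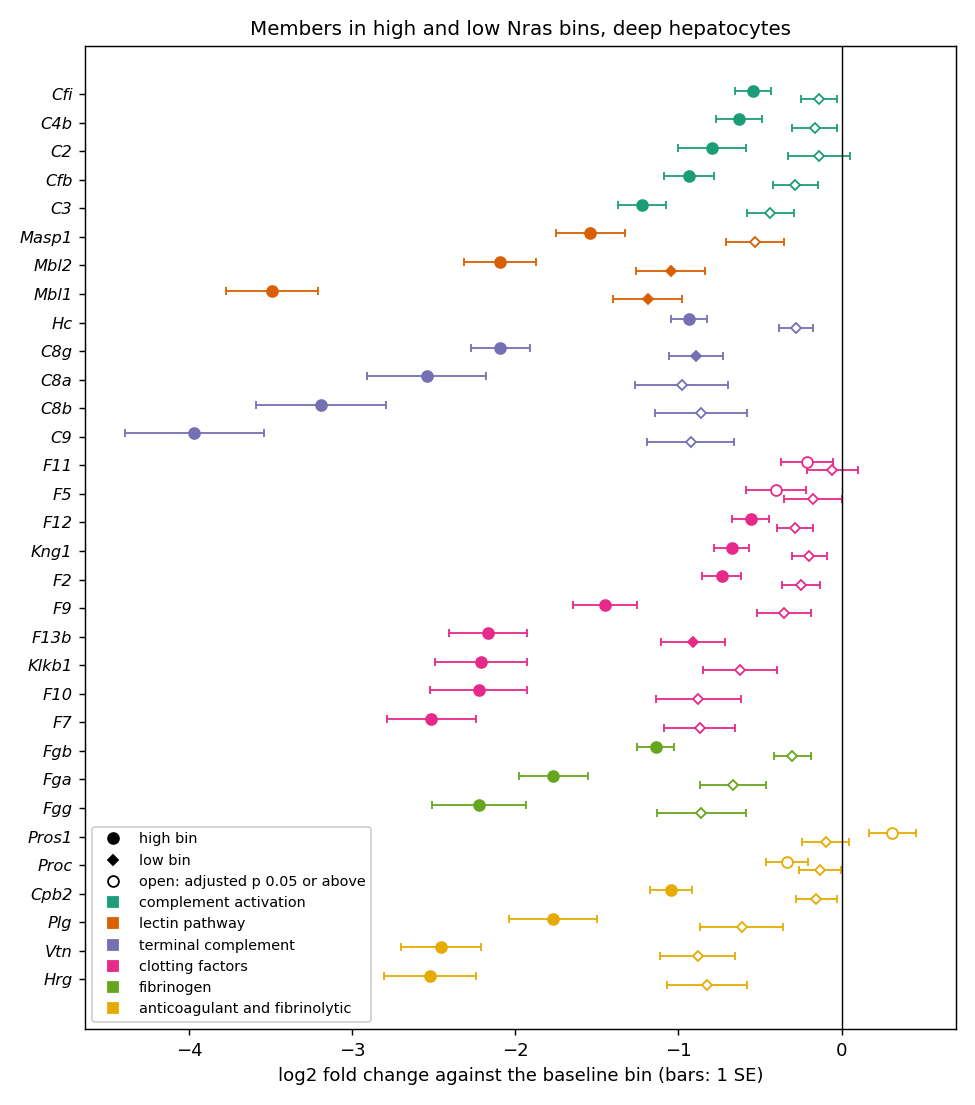
Log2 fold changes of the 32 members tested against the baseline bin, in the high bin (circles) and the low bin (diamonds), with bars of 1 SE from edgeR. Colours give the role, and filled symbols an adjusted p under 0.05. The high-bin values run from -3.97 for C9 to 0.31 for Pros1, with 28 filled circles and 4 filled diamonds.

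The 837 deep hepatocytes with no hashtag called were not in the fit and gave the same measurement in other cells of the same pool. Of these 610 were at baseline and 58 in the high bin. There 29 members had a high-bin Poisson interval wholly below the baseline interval and 0 above it, and 27 of these were among the 28 called in the fit. The same count over all genes was not made. The intervals cover counting error only, so the 29 is a description. Fgg was 1900 and 127 CPM, Mbl1 75.1 and 8.58, and C9 14.9 and 0.408, the latter from 1 UMI. F11 was 56.4 and 54.7 and Pros1 20 and 23.3.

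In the low bin against baseline all 32 tested members had a negative value, with a median of -0.48 against -0.01 for all genes tested, but only 4 fell, against 2.0% of all genes called lower and 1.72% called higher. These were Mbl1 (log2 -1.19, SE 0.21, adjusted p = 0.0126), Mbl2 (-1.05, SE 0.21, adjusted p = 0.0229), F13b (-0.91, SE 0.20, adjusted p = 0.0307) and C8g (-0.89, SE 0.16, adjusted p = 0.0158) by edgeR. F13b went from 39.6 to 23.6, 10.6 and 14.5 CPM across the bins of hashtag 1 and from 43.0 to 21.7, 14.9 and 7.39 in hashtag 2, and the values of the other 3 are given above. In both mice the low value of these 4 genes was under the baseline value. The calls depended on the processing, with 0 in cells thinned to 10000 UMIs, 0 at 10000 to under 30000 UMIs, 0 without the hashtag block and 2 by DESeq2, but 12 without barcodes that passed another gate. Thinning also redrew the bins, and the low bin then held 52 and 245 cells in hashtags 1 and 2 in place of 33 and 174. With Nras quartiles 0 were called, but there the lowest quartile and the next both held only baseline cells in these mice. The quartiles therefore cannot decide whether the low bin differs from baseline.

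Between the high and the intermediate bin 0 of 32 members were called by edgeR, 7 had an unadjusted p under 0.05, and of all genes tested 0.00915% were called lower and 0.0% higher. DESeq2 called 0 members and 0.11% of all genes. The median was -0.26. In hashtag 2, 32 of 33 members were lower in the high bin, 23 of them with Poisson intervals apart, whereas in hashtag 1 there were 14 lower and 19 higher, with 3 and 4 intervals apart. In the deep hepatocytes without a hashtag, 31 were lower and 2 higher, with 14 and 1 intervals apart and a median ratio of 0.649. Under the fixed hashtag rule, a check chosen after seeing the data, hashtag 1 had 30 lower and 3 higher, with 13 and 0 intervals apart. Of the 515 deep hepatocytes that this rule gave hashtag 1, 282 were among those without a hashtag. The 2 checks thus share cells. The direction in hashtag 1 therefore depended on how hashtags were called, and the difference between the mice was not tested. These counts per hashtag and without a hashtag were not made over all genes. In the fit 31 members had a negative value, against 5384 of the 10927 genes tested. With Nras quartiles within each mouse in place of the fixed bins, 13 members were called lower in the highest quartile than in the next. That next quartile held only baseline and low cells in hashtags 1 and 2, so the count does not compare high with intermediate Nras. The share of all genes called in that fit is not given.

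In its secretome analysis the study linked complement and coagulation to cluster 2, a hepatocyte cluster of middle NRAS level. The mean of the low and intermediate bins was therefore set against the mean of baseline and high. The bins are not the study's clusters, and clusters were not mapped to bins, so this comparison does not test the study's link. 0 members were called by edgeR, 2 had an unadjusted p under 0.05, and 0.0275% of all genes were called higher and 0.0% lower. DESeq2 called 0 members and 0.201% of all genes. The median of the members was -0.04, with 9 positive and 23 negative values. Mbl2 and Fgg had the lowest unadjusted p values, with log2 differences of -0.45 (SE 0.15, adjusted p = 0.735, edgeR) and -0.47 (SE 0.20, adjusted p = 0.908, edgeR). From bin to bin, 31 of 33 members were lower at every step in hashtag 2 and 9 in hashtag 1, which were among the 31. The same count over all genes was not made. The hepatocyte markers summed to 23948, 17046, 12912 and 9807 CPM in hashtag 2 and 21561, 15209, 11123 and 11622 in hashtag 1. With quartiles of Nras within each mouse the median of the members for middle against outer was 0.40, also with 0 called. Baseline cells were 139 of the 225 deep hepatocytes of hashtag 1 and 749 of the 1116 of hashtag 2. The middle quartiles of these mice thus held baseline and low cells only, and this value does not describe middle Nras.

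Of 40 other genes of the pathways 31 could be tested in the high bin, with 13 called lower and 6 higher, a median of -0.77. Those that fell included Proz, protein Z (log2 -2.90, SE 0.26), and Serpinc1, antithrombin (-2.66, SE 0.37). The largest rises were those of Plaur, the urokinase receptor (3.52, SE 0.17), Plat, tissue plasminogen activator (2.42, SE 0.20), and Thbd, thrombomodulin (2.1, SE 0.40). Procr, the protein C receptor (1.85, SE 0.53), Serpine2, a secreted protease inhibitor (1.84, SE 0.31), and Clu, clusterin (1.28, SE 0.09), made up the rest of the 6. In the low bin 3 of the 31 fell, among them Proz (-1.21, SE 0.20) and Fgl1 (-0.75, SE 0.11), and Plaur (1.93, SE 0.18), Serpine2 (1.46, SE 0.31), Plat (1.35, SE 0.21) and Clu (0.53, SE 0.09) rose. These were 9.68% lower and 12.9% higher, against 2.0% and 1.72% of all genes tested. In the high against the intermediate bin and in the middle bins against the outer bins 0 of the 31 were called by edgeR, with 11 and 5 at an unadjusted p under 0.05.

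Depth was the other axis along which the members varied. At baseline Nras, deep and shallow hepatocytes were compared in all 3 mice, with 139 and 184 cells in hashtag 1, 749 and 224 in hashtag 2 and 19 and 304 in hashtag 3. In deep cells 25 of 32 members were higher and 1 was lower, against 18.5% and 17.6% of the 6813 genes tested (edgeR, hashtag as block). The median log2 difference of the members was 1.65 and that of all genes tested -0.02. Of the 10 hepatocyte markers 5 were higher and 3 lower, with a median of 0.65, and the difference between the lists was not tested. Their summed level was nevertheless lower in deep cells of every mouse. It was 35635 CPM in shallow and 21561 in deep cells of hashtag 1, 30860 and 23948 in hashtag 2, and 29228 and 21581 in hashtag 3. Shallow cells also held less mitochondrial RNA, with medians of 0.716% and 1.64% in hashtags 1 and 2 against 7.34% and 9.0% in deep cells, and 5.76% against 5.83% in hashtag 3. The share of cells that passed another gate was 14.7%, 19.2% and 44.7% in shallow and 17.3%, 1.74% and 78.9% in deep cells of hashtags 1, 2 and 3, so it was higher in deep cells of hashtags 1 and 3 and lower in those of hashtag 2. The part of these in the difference was not tested, except that 27 members were higher and 1 lower without such barcodes. In that fit hashtag 3 kept only its shallow sum, of 168 cells, and gave no difference between depths.

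Complement activation had all 5 genes higher in deep cells, with a median of 2.13. C3 was 404 CPM in shallow and 2494 in deep cells of hashtag 1, 1172 and 2800 in hashtag 2, and 341 and 1853 in hashtag 3 (log2 2.26, SE 0.26, adjusted p = 0.000861, edgeR). C2, the protease of the classical convertase, was 15.3 and 70.3, 30.8 and 85.1, and 9.78 and 78.6 in the same order (log2 2.21, SE 0.28). C4b changed by 2.13 (SE 0.15), from 57.1 to 262, from 82.5 to 311 and from 46.7 to 162. All deep values of these 3 genes were above all shallow values.

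The largest difference was that of F12, the factor that starts the contact pathway, at 32.0 in shallow and 192 in deep cells of hashtag 1, 62.6 and 202 in hashtag 2, and 25 and 206 in hashtag 3 (log2 2.50, SE 0.25, adjusted p = 0.000552, edgeR). Vtn was 180 and 991, 289 and 1034, and 146 and 897 (log2 2.45, SE 0.18, adjusted p = 0.000308, edgeR). Neither gene had overlapping groups. Fga changed by 2.07 (SE 0.16), from 220 to 1079, from 381 to 1294 and from 171 to 548 in hashtags 1, 2 and 3. F5 was 9.75 and 81.5, 50.7 and 109, and 12 and 64.8 (log2 2.05, SE 0.32), and F7 was 11.1 and 33.2, 14.9 and 43.2, and 5.43 and 32.4 (log2 1.93, SE 0.30). All shallow values of these genes were below all deep values of the same gene.

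Mbl1 was the exception, at 156 in shallow and 74.4 in deep cells of hashtag 1, 146 and 86.7 in hashtag 2, and 104 and 83.3 in hashtag 3 (log2 -0.60, SE 0.19, adjusted p = 0.0393, edgeR). The other mannose-binding lectin, Mbl2, was higher in deep cells (log2 1.67, SE 0.17). C9, C8a, C8b, F9, Masp1 and Pros1 were not called. Pros1 was 98.9 in shallow and 46.3 in deep cells of hashtag 3, where endothelial markers summed to 4409 and 1129 CPM, against 15.3 and 22.9 in hashtag 1 and 22.9 and 20.6 in hashtag 2.

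Of 23 other pathway genes tested along depth 14 were higher and 6 lower in deep cells. These were 60.9% and 26.1%, against 18.5% and 17.6% of all genes tested. The largest positive values were those of Serpind1, heparin cofactor II (2.80), and the C1 proteases C1s1 (2.46) and C1ra (2.11), and the largest negative ones those of C1qa (-4.05) and C1qb (-3.80), chains of C1q made mainly by macrophages, and Cd55 (-3.15). Macrophage markers summed to 261, 79.5 and 142 CPM in shallow and 23.1, 13.4 and 13.9 in deep cells of hashtags 1, 2 and 3.

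The order of the members along depth was not their order along Nras. C9, C8b and Mbl1 had log2 values of -3.97, -3.19 and -3.49 in the high bin and 0.0046, 0.59 and -0.60 in deep against shallow cells. F12 and C2 had -0.56 and -0.80 in the high bin and 2.50 and 2.21 in deep cells, whereas Vtn was far from 0 in both, at -2.45 and 2.45. Both comparisons use the deep baseline cells, and no correlation between them was taken.

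Over all hepatocytes at baseline Nras, with or without a hashtag, 4 depth classes gave finer steps. C3 was 399 CPM from 1000 UMIs, 544 from 3000, 2170 from 10000 and 2682 from 30000. Most of the difference for C3 thus lay between the classes below and above 10000 UMIs. C9 went the other way, with 49.1, 21.5, 12.1 and 16.8, and Mbl1 with 145, 128, 87.6 and 80.8. The highest class was over 2 times the lowest for 23 of the 33 members, and the same count over all genes was not made. The lowest and highest classes also differed in median mitochondrial share, 0.383% and 8.91%, and in summed endothelial markers, 561 and 24.0 CPM. The part of these in the members' values was not tested. All values are of 1 pool, with no replicates.

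**Figure D3:**
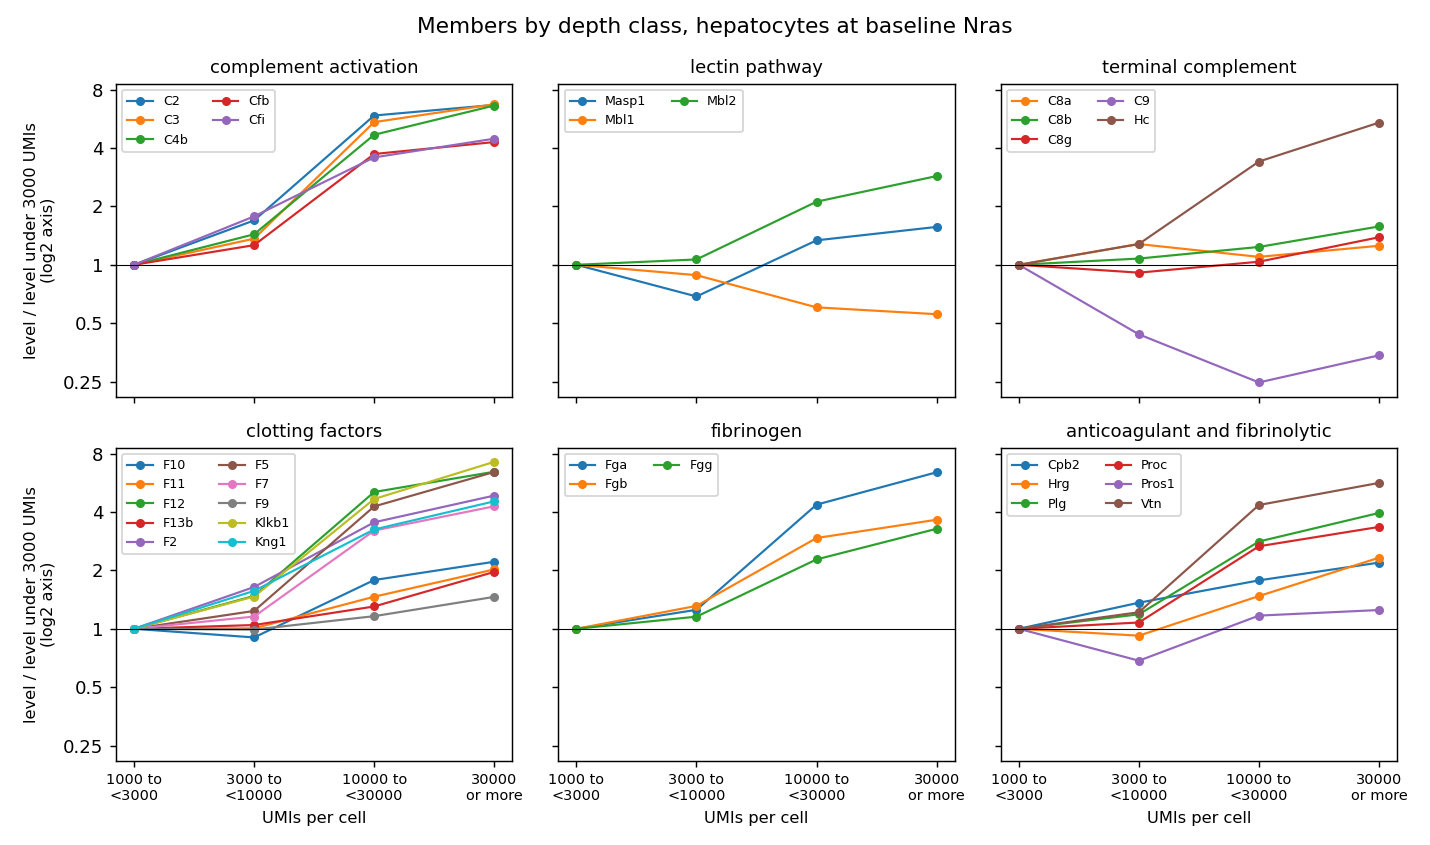
Level of each member in 4 classes of UMIs per cell, divided by its level in the class of 1000 to under 3000 UMIs, on a log2 axis, in hepatocytes at baseline Nras pooled over hashtags, C6 left out for low counts. Panels are roles and lines are genes. C3 goes from 399 to 2682 CPM over the classes, whereas C9 goes from 49.1 to 16.8 and Mbl1 from 145 to 80.8.

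Across cell types, 30 of 33 members had a lower CPM in endothelial cells than in hepatocytes, 32 in macrophages, and 33 in conventional dendritic, T or NK and B cells. These types were gated by markers among barcodes with under 1% of the 4 hepatocyte genes, which gave 571 endothelial cells, 35 macrophages, 495 dendritic cells, 78 T or NK cells and 48 B cells. All markers of each list were detected. Since free hepatocyte RNA reaches every droplet, each member was also set against 6 hepatocyte genes (Ahsg, Apoc3, Gc, Serpina3k, Fabp1 and Ambp), and a ratio to those genes above that in hepatocytes is more than free RNA in 1 proportion would give. In endothelial cells the interval of this ratio lay above the hepatocyte value for 3 members and in macrophages for 4, and in the other types for 0.

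Masp1 and Pros1 were the members with the highest endothelial levels relative to hepatocytes. Masp1 was at 215 CPM in endothelial cells (95% Poisson interval 198 to 234) and 12.7 in hepatocytes (12 to 13.3). By hashtag the endothelial level was 110, 134 and 235 in 23, 39 and 478 cells. Pros1 was at 298 (278 to 320) and 20.9 (20.1 to 21.8), and by hashtag at 143, 412 and 302. Every mouse thus had endothelial levels above those of deep hepatocytes, though most endothelial cells came from hashtag 3.

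With cells thinned to 2000 UMIs, 38.1% of endothelial cells held a Masp1 UMI (exact binomial 95% interval 34.0 to 42.4), against 1.22% of hepatocytes that passed no other gate and 0 of 491 dendritic cells, which allows a share of up to 0.611%. Before thinning the shares were 56.6%, 10.8% and 0.808%, at median depths of 3725, 3724 and 9705 UMIs. For Pros1 the thinned shares were 49.5%, 1.94% and 0.204%, and the unthinned shares 67.6%, 15.4% and 1.62%. The share in dendritic cells, which had more UMIs per cell, is the background measured the same way.

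C6, the only terminal complement gene too low to test in hepatocytes at 0.632 CPM (0.493 to 0.797), was at 141 in macrophages (98.4 to 197). This value rests on 35 UMIs in 35 cells. By hashtag the level was 96.0, 114 and 312 CPM in 10, 18 and 7 cells. No C6 UMI was found in endothelial cells, where 3 UMIs would have been 1.17 CPM. The macrophage level was thus above the hepatocyte level in all 3 mice, with wide counting errors.

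The rest of the members above the hepatocyte ratio were C2, C4b and Pros1 in macrophages, with 7, 18 and 5 UMIs, and C9 in endothelial cells at 15.9 CPM, close to its 15.0 in hepatocytes. C9 in shallow hepatocytes was higher than either, at 49.1 in the lowest depth class. The median ratio over all 33 members was 0.320 in both endothelial cells and macrophages. With Alb, Apoa1, Apoa2 and Ttr as reference, 14 members exceeded the hepatocyte ratio in endothelial cells, 6 in macrophages and 19 in dendritic cells. The gate capped these 4 genes, which summed to 5138, 3177 and 3026 CPM in those types against 70685 in hepatocytes. Ratios to them were thus raised by the gate itself and are no separate check. The 3 endothelial and 4 macrophage members named here were among these 14 and 6. With gates that set no limit on hepatocyte share, Masp1, Pros1 and C9 were still above the hepatocyte ratio in endothelial cells and C6 in macrophages. C2, C4b and Pros1 in macrophages were not.

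**Figure D4:**
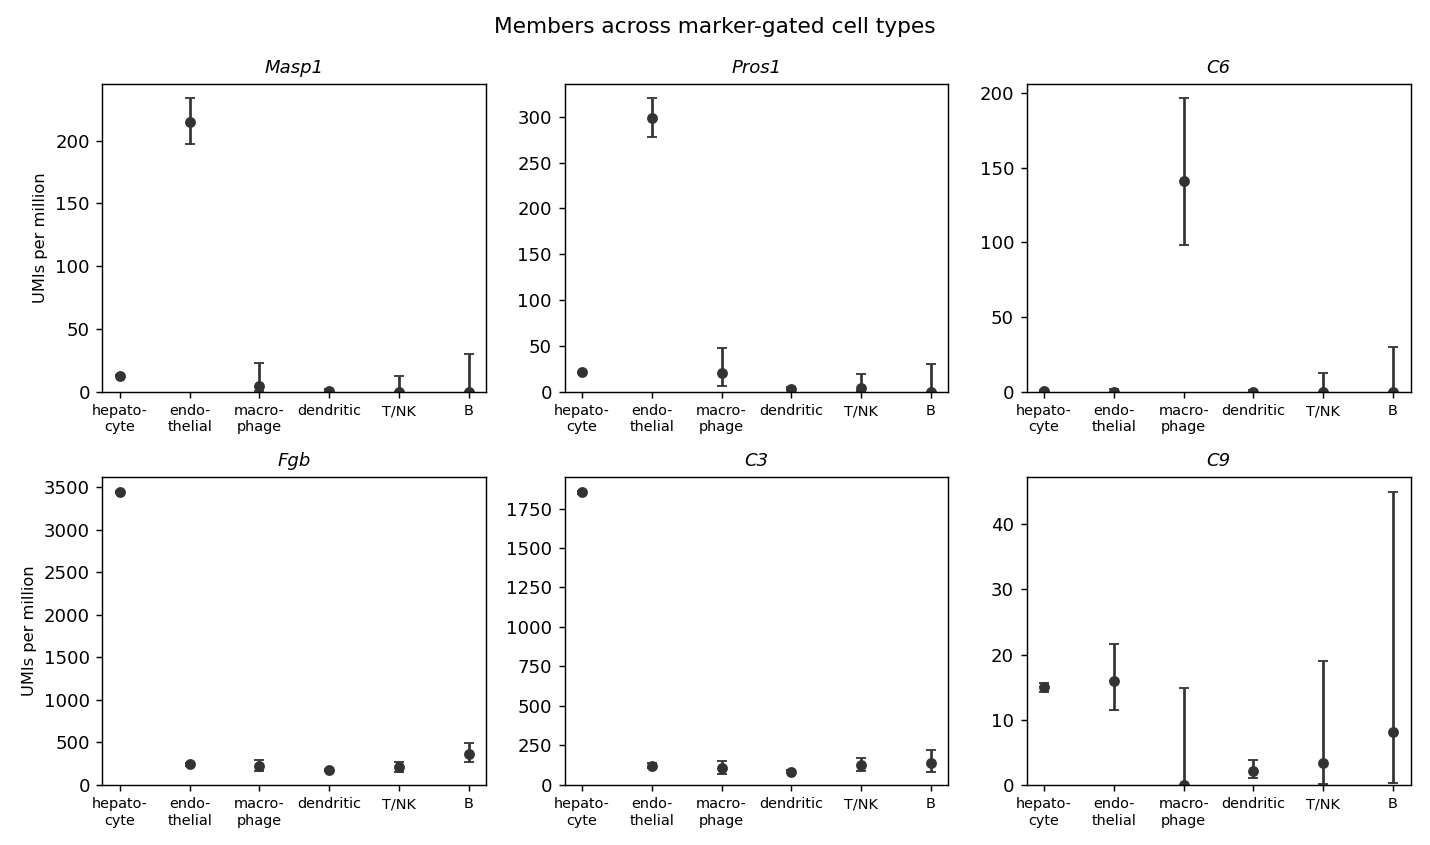
Levels of Masp1, Pros1, C6, Fgb, C3 and C9 in CPM, on linear axes from 0, in hepatocytes and in 5 marker-gated cell types. Points are pooled sums and bars exact Poisson 95% intervals. Masp1 and Pros1 reach 215 and 298 in endothelial cells and C6 141 in macrophages, whereas Fgb and C3 are highest in hepatocytes at 3448 and 1853.

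By hashtag, the deep hepatocytes at baseline differed in level as well. The members' summed share was 1.66%, 1.92% and 1.26% for hashtags 1, 2 and 3, and the fibrinogen chains 0.710%, 0.804% and 0.452%. Hashtag 3 was lowest for Fgg, at 999 CPM against 1687 and 2148, and highest for Masp1 and Pros1, at 46.3 each against 15.6 and 18.1 for Masp1 and 22.9 and 20.6 for Pros1. Of its 19 cells 15 passed another gate, and their endothelial markers summed to 1129 CPM against 132 and 21.7. Their median depth was 15171 UMIs against 27959 and 41486. The part of these in the differences was not tested. There was 1 control mouse, and the sources pair it with different hashtags, so construct was not compared.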

How the data were processed

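Cells from 3 livers were labelled with hashtags, pooled and sequenced as 1 droplet gene expression library with a hashtag library. The authors deposited UMI counts per gene and barcode and counts per hashtag, neither normalized. The submitters' processing notes name Cell Ranger 2.1.1 and mm10, and the matrix header gives software version 3.0.2. The gene library held 142080194 UMIs, with a median of 3908 per barcode.

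Kept barcodes had 500 or more genes, 1000 or more UMIs and a mitochondrial share under 20%. Hashtags were called with HTODemux (Seurat 5.3.0, positive quantile 0.99), which gave 5482 barcodes with 1 hashtag, 271 doublets and 7386 negatives. Hashtag doublets were left out of the fits, doublets within a mouse cannot be seen this way, and no other doublet caller was run. Other cell types needed at least 3 markers detected, 5 marker UMIs and a marker share 2 times that of every other type.

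UMIs were summed per hashtag and Nras bin or depth class (at least 5 cells), since cells are not replicates. Sums were tested with edgeR 4.0.16 (quasi-likelihood, TMM, filterByExpr, two-sided, Benjamini-Hochberg over all genes tested, threshold 0.05). The same mouse gave all sums of a hashtag, so hashtag was a block. DESeq2 1.42.0 was an alternative, beside other filters, depths, Nras classes, hashtag rules and left-out hashtags. Fits ran in R 4.3.3 and other steps in Python 3.11.15 with pandas 2.3.3 and scipy 1.17.1, and the tests were tried on simulated data. Intervals are exact Poisson or Clopper-Pearson at 95% and cover counting error only, and 3 counts set the limit for a count of 0.

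The members and gene lists were chosen with earlier results of these data known. Values by hashtag are printed for the 8 called members with the largest log2 change per comparison and for at least 1 member of each role, and of the other pathway genes the 3 called with the largest change in each direction are named, except for 1 gene that is not reported here. Others were named after their values were seen.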

Additional observations from a re-analysis of the deposited data

Results flagged for a closer look

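Between the intermediate and the high Nras bin, 4 members moved in opposite directions in the mice of hashtags 1 and 2, with Poisson intervals that did not overlap within either mouse. These intervals cover counting error only and leave out the spread between cells. The log2 ratio of high to intermediate for Fgg was 0.86 in hashtag 1 and -0.69 in hashtag 2, a difference of 1.55. For Plg, the precursor of plasmin, it was 0.66 and -0.86, a difference of 1.52. For Mbl2 it was 0.43 and -0.69, a difference of 1.12, and for C3 0.22 and -0.46, a difference of 0.68. Each mouse gave 1 sum per bin, from 22 and 31 cells in hashtag 1 and 97 and 96 in hashtag 2, so the difference between the mice was not tested. The opposite directions depended on how hashtags were called. Under the fixed hashtag rule, a check chosen after seeing the data, the log2 ratios in hashtags 1 and 2 were -0.86 and -0.70 for Fgg, -0.37 and -0.93 for Plg, -0.28 and -1.62 for Mbl2 and -0.15 and -0.47 for C3.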

How the results depend on the processing

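For high against baseline Nras, 28 members were called. The count was 5 of 28 tested at 10000 to under 30000 UMIs and 15 with Nras quartiles within hashtags, and from 22 to 30 under the other alternatives, with 0 called higher under any. At 10000 to under 30000 UMIs the high bin held only 5 and 6 cells in hashtags 1 and 2. For low against baseline, 4 members were called, against 2 by DESeq2, 17 without the filter on low counts, 15 in cells from 30000 UMIs, 0 at 10000 to under 30000 UMIs, 10 under a fixed rule for hashtags, 12 without barcodes passing another gate, 0 with Nras quartiles and 0 in cells thinned to 10000 UMIs. For high against intermediate, 0 were called, against 4 without the filter, 2 under the fixed rule, 13 with quartiles and 1 in thinned cells. For middle against outer bins, 0 were called, against 2 without the filter. For deep against shallow cells, 26 were called, against 17 under the fixed rule and 21 to 26 with 1 hashtag left out. In these cases the cause was not tested. The quartiles did not match the bins. In hashtags 1 and 2 the lowest quartile and the next held only baseline cells. The quartile under the highest held only baseline and low cells. Cells thinned to 10000 UMIs were binned again by their thinned Nras. Directions called in the main comparisons did not reverse under the alternatives run.

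The hashtag block pairs the sums of 1 mouse. Without the replicate block the calls were 24 for high against baseline, 0 for low against baseline, 0 for high against intermediate, 0 for middle against outer bins and 24 for deep against shallow cells.

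Leaving out hashtag 1 or 2 left no residual degrees of freedom in the Nras comparisons, so no test was made. The median high to baseline ratio of the members was 0.504 in hashtag 1 and 0.320 in hashtag 2. Ratios across cell types depended on the gate and on the reference genes. Masp1 in endothelial cells was 59.9 times its hepatocyte ratio, 22.5 times without the limit on hepatocyte share and 234 times with Alb, Apoa1, Apoa2 and Ttr as reference. Pros1 was 50.3, 18.9 and 196 times in the same order, and C6 in macrophages 1257, 205 and 4977 times. The gate held Alb, Apoa1, Apoa2 and Ttr under 1% of the UMIs, which raised the last value of each gene. Depth limits C9, with 4 UMIs in the high bin of each of hashtags 1 and 2, and C6, with 71 UMIs in all hepatocytes.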
